A study of Mus musculus with 10 samples.

Results

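Wnt signalling was followed here through the chromatin of 9 genes: *Axin2*, *Lef1*, *Tcf7*, *Tcf7l1*, *Tcf7l2*, *Ctnnb1*, *Lrp6*, *Sfrp1* and *Dkk3*, out of 21938 protein-coding genes in the annotation. Peaks of open chromatin from 6 ATAC-seq libraries were merged into 108367 sites, and a site was taken for a gene when the nearest start of a protein-coding gene was its own and the summit lay in the gene body or within 50 kb of it. By that rule 105 sites belonged to the 9 genes, against 86017 for all protein-coding genes, and 43 more sites had one of the 9 as their nearest gene but lay farther out. *Tcf7l2* had 22 sites, *Axin2* 19, *Tcf7l1* 14, *Lef1* 11, *Ctnnb1* 10, *Lrp6* 10, *Sfrp1* 7, *Tcf7* 6 and *Dkk3* 6.

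In the canonical pathway a Wnt ligand is bound by a Frizzled receptor together with LRP6, which keeps beta-catenin, the product of *Ctnnb1*, from being degraded. Beta-catenin then enters the nucleus and joins the TCF and LEF proteins encoded by *Tcf7*, *Lef1*, *Tcf7l1* and *Tcf7l2*, which bind DNA at CTTTGAT and CTTTGAA and repress their targets when beta-catenin is missing. *Axin2* is a widely used target of the pathway and acts back on it as a scaffold for the degradation of beta-catenin, while SFRP1 is a secreted protein that binds Wnt ligands and DKK3 is a secreted member of the Dickkopf family.

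The study asked how chromatin differs between dividing and resting neural stem and progenitor cells (NSPCs), which were taken from the brains of C57BL/6 mice at postnatal day 5 and grown as primary cultures. Activated NSPCs were kept with 20 ng/ml EGF and 20 ng/ml FGF2. Quiescent NSPCs were kept without EGF, with 20 ng/ml FGF2 and 25 ng/ml BMP4, for 4 days by the labels, although the study's methods give a shorter time for ATAC-seq. Reactivated NSPCs were first held with BMP4 for 4 days and returned to the activating medium for another 9 to 12 days. ATAC-seq, in which the Tn5 transposase cuts accessible DNA, was done on 2 libraries per state. ChIP-seq for H3K4me3, a histone mark of active promoters, was done on 1 library each of quiescent and activated cells. Such cultures mix stem cells with progenitors, and a peak found in fewer cells cannot be told apart from a weaker peak in every cell. Promoter peaks were present in all 6 libraries at 6 of 6 NSPC markers, and at 0 of 3 markers each of oligodendrocytes and endothelium, 0 of 3 of microglia, 2 of 3 of neurons and 1 of 3 of liver.

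Each ATAC-seq list held from 47037 to 60355 usable peaks in the quiescent and activated libraries, and 106270 and 106830 in the reactivated ones, whose reads the authors had downsampled. The background pileup, as recovered from the peak statistics, was 12.1 reads in quiescent replicate 2 and between 6.01 and 6.61 in the other 5 libraries. Peaks were called from a pileup of 25 reads upwards in quiescent replicate 2 and of 16 or 17 elsewhere, and weaker accessibility was not detectable. All levels below are fold enrichment, the pileup at a summit relative to the background of the same library, and a percentile ranks a peak among all peaks of its own list.

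Of the 105 sites, 14 held at least 1 TCF/LEF match, CTTTGAT or CTTTGAA on either strand, within 200 bp around the summit. That was 13.3% of them, against 5.49% of all protein-coding sites. In whole sites the shares were 17.1% and 9.87%, and in 400 bp they were 15.2% and 12.2%. *Axin2* had the most, with 5 of the 14, and *Lef1* had 3, while *Tcf7l1* and *Lrp6* had no match in these windows. The AP-1 motif TGANTCA, on either strand, was in 6 sites (5.71%, against 7.13%). An AP-1 match lay in 1 of the 14 sites with a TCF/LEF match. A match of letters is a description of the sequence and not of binding.

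The first 5 sequences below come from named sites with a TCF/LEF match, at promoters and at the strongest or state-specific sites of *Axin2*, *Tcf7*, *Lef1* and *Dkk3*. They are the plus strand of GRCm38, 5′ to 3′, 200 bases around a summit, with TCF/LEF matches in capitals. The *Axin2* promoter is shortened to 30 bases around its match, which lies in the first exon, and the *Axin2* site in the first intron to the 142 bases outside the exon.
Axin2 promoter, chr11:108920415-108920444: gagccggctgcgCTTTGATaaggtcctggc
Axin2 first intron, chr11:108921194-108921335: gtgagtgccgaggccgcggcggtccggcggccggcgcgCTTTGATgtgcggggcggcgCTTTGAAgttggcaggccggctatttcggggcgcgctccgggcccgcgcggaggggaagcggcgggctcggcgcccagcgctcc
Tcf7 promoter, chr11:52283318-52283517: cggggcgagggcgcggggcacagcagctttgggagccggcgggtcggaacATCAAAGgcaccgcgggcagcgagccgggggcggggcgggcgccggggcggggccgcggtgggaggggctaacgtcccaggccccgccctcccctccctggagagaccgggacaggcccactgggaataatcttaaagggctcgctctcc
Lef1 upstream site, chr3:131106052-131106251: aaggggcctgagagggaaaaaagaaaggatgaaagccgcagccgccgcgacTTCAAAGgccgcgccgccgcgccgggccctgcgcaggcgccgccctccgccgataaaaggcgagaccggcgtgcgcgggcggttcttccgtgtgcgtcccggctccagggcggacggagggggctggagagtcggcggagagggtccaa
Dkk3 upstream site, chr7:112180309-112180508: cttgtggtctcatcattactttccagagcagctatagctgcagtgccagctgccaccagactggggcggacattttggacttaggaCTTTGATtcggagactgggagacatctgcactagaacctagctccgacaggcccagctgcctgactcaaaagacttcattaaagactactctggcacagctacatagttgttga

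The *Axin2* intron window held both forms, CTTTGAT and CTTTGAA, and the *Tcf7* and *Lef1* matches read on the reverse strand. The *Tcf7* window was 75.0% G or C and the *Lef1* window 71.0%, against 50% at *Dkk3*, which also held 1 AP-1 match. The next 4 sequences are the strongest sites without a TCF/LEF match that had a peak in both libraries of one state and in neither of the other, 3 of them activated and 1, at *Lrp6*, quiescent. They hold no capitals because no TCF/LEF match was found.
Tcf7l2 intron, chr19:55788351-55788550: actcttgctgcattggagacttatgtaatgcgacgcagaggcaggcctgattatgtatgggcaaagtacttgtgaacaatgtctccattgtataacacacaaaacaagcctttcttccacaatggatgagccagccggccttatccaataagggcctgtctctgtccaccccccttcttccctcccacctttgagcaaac
Tcf7l2 downstream site, chr19:55969899-55970098: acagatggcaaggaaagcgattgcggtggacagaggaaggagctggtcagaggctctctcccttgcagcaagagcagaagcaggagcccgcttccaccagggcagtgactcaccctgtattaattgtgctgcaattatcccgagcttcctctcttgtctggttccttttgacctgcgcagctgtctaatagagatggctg
Axin2 upstream site, chr11:108900807-108901006: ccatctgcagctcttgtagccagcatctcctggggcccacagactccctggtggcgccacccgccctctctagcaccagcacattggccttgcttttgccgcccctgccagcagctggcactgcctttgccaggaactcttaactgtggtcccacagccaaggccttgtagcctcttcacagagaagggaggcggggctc
Lrp6 intron, chr6:134512565-134512764: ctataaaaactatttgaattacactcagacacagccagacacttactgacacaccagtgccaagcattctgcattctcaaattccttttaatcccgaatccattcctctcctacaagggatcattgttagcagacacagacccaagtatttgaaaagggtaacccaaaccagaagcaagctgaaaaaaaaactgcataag

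The *Tcf7l2* downstream sequence held 1 AP-1 match. The *Lrp6* sequence had the lowest G and C content of these 9, at 40%.

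The starts of the genes were open in nearly every library. A peak within 1 kb of a start was present in all 6 libraries at 7 of the 9 genes, whereas 52.2% of protein-coding genes had such a promoter. *Lef1* and *Dkk3* were the exceptions. H3K4me3 covered or lay within 1 kb of a start in both states at 8 of the 9 genes, against 59.3% of protein-coding genes, and *Dkk3* was the one without it. The levels that follow are before any scaling between libraries. On that scale the reactivated libraries were higher in general: over the 23116 sites with a peak in all 6 libraries, the median log2 difference was 0.55 from activated and 0.72 from quiescent NSPCs.

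*Lrp6*, which encodes the Wnt co-receptor, had the highest promoter level of the 9 in the reactivated libraries. Quiescent libraries gave a fold enrichment of 9.99 and 9.83 there, against 10.1 and 8.15 in the activated ones and 14.96 and 15.1 in the reactivated ones. The reactivated libraries lay above the other 4, and the quiescent and activated libraries overlapped. After centring each library on its median, reactivated minus quiescent was −0.27 and reactivated minus activated 0.07 in log2, and neither was called in limma, though with fold enrichment averaged by peak width the first was −0.72 (adjusted p = 0.013). The promoter of *Sfrp1*, the secreted Wnt antagonist, had 5.88 and 5.13 in quiescent NSPCs, 7.37 and 6.09 in activated NSPCs and 11.7 and 13.0 in reactivated NSPCs. Here the 3 states did not overlap, with quiescent lowest and reactivated highest. Centred, the *Sfrp1* promoter differed by 0.29 from quiescent and by 0.23 from activated NSPCs, with no call, though among the upper 50% of sites by mean fold enrichment the first was 0.48 (adjusted p = 0.049 in limma).

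At *Ctnnb1*, the gene for beta-catenin, the strongest promoter peak lay at chr9:120933147-120933891, 4.21 kb inside the annotated gene body at a second, internal start. Its fold enrichment was 8.93 and 10.7 in quiescent NSPCs, 10.5 and 8.93 in activated NSPCs and 7.71 and 8.74 in reactivated NSPCs. It was the only one of the 7 promoters in which both reactivated libraries lay below the other 4. Another *Ctnnb1* promoter site, 5.34 kb into the gene and with 1 TCF/LEF match, went the other way. It had peaks in the reactivated libraries alone, of 3.99 and 5.07.

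The *Axin2* promoter at chr11:108920162-108920973 spanned the gene start. Its levels were 6.96 and 8.03 in quiescent NSPCs, 8.88 and 6.92 in activated NSPCs and 7.37 and 9.68 in reactivated NSPCs, and the states overlapped. After centring, reactivated minus activated was −0.54 (adjusted p = 0.047 in limma) and reactivated minus quiescent −0.70 (adjusted p = 0.0072). Without centring these differences were 0.11 and 0.18. The site in the first intron with both TCF/LEF forms was weak, with peaks of 2.88 in quiescent replicate 2, 2.11 in activated replicate 2, and 2.27 and 3.05 in the reactivated libraries. Another *Axin2* site, 1327 bp into the gene at an internal start, had 1 peak, of 2.64 in reactivated replicate 2.

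Among the 4 TCF and LEF genes the promoters differed widely in level. *Tcf7l1*, which encodes a TCF known mainly as a repressor, had 8.13 and 8.69 in quiescent NSPCs, 8.14 and 6.34 in activated NSPCs and 8.77 and 9.97 in reactivated NSPCs. *Tcf7l2* had 5.53 and 3.97 at its first start in quiescent NSPCs, 7.65 and 6.35 in activated NSPCs and 10.1 and 10.4 in reactivated NSPCs. Before scaling, the states did not overlap at this *Tcf7l2* start. At *Tcf7l1* quiescent and activated NSPCs overlapped, and both reactivated libraries lay above all quiescent and activated ones. After centring, reactivated minus activated was −0.10 at this *Tcf7l2* start (adjusted p = 0.76 in limma) and reactivated minus quiescent 0.25 (adjusted p = 0.35). At the *Tcf7l1* promoter the same differences were −0.27 (adjusted p = 0.28 in limma) and −0.72 (adjusted p = 0.0035). At a second *Tcf7l2* start, 153.8 kb into the gene, the levels were 4.86 and 4.36 in quiescent NSPCs, 6.50 and 4.28 in activated NSPCs and 11.1 and 10.8 in reactivated NSPCs, so that only the reactivated libraries stood apart. Centred, this start differed by 0.40 from activated and by 0.38 from quiescent NSPCs, with no call. The difference from activated NSPCs was 0.19 without activated replicate 2 and 0.56 without activated replicate 1.

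*Tcf7* and *Lef1* had the weakest promoters of the 8 that had any peak. At *Tcf7* the levels were 3.10 and 3.78 in quiescent NSPCs, 4.13 and 4.60 in activated NSPCs and 6.96 and 8.27 in reactivated NSPCs, in that order and without overlap. The centred *Tcf7* differences were 0.15 from activated and 0.27 from quiescent NSPCs, with no call. At *Lef1* there were 4 sites, within 1.67 kb downstream of the start, and none had a peak in quiescent replicate 1. The site at 0.769 kb had 2.75 in quiescent replicate 2, 3.92 in activated replicate 2 and 4.40 and 6.29 in the reactivated libraries, with no peak in activated replicate 1. A neighbouring *Lef1* site at 1.32 kb had the peak of activated replicate 1, at 2.61, and those of both reactivated libraries, at 2.91 and 1.97. The site at 1.67 kb had peaks in the reactivated libraries alone, of 4.49 and 3.43.

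**Figure D1:**
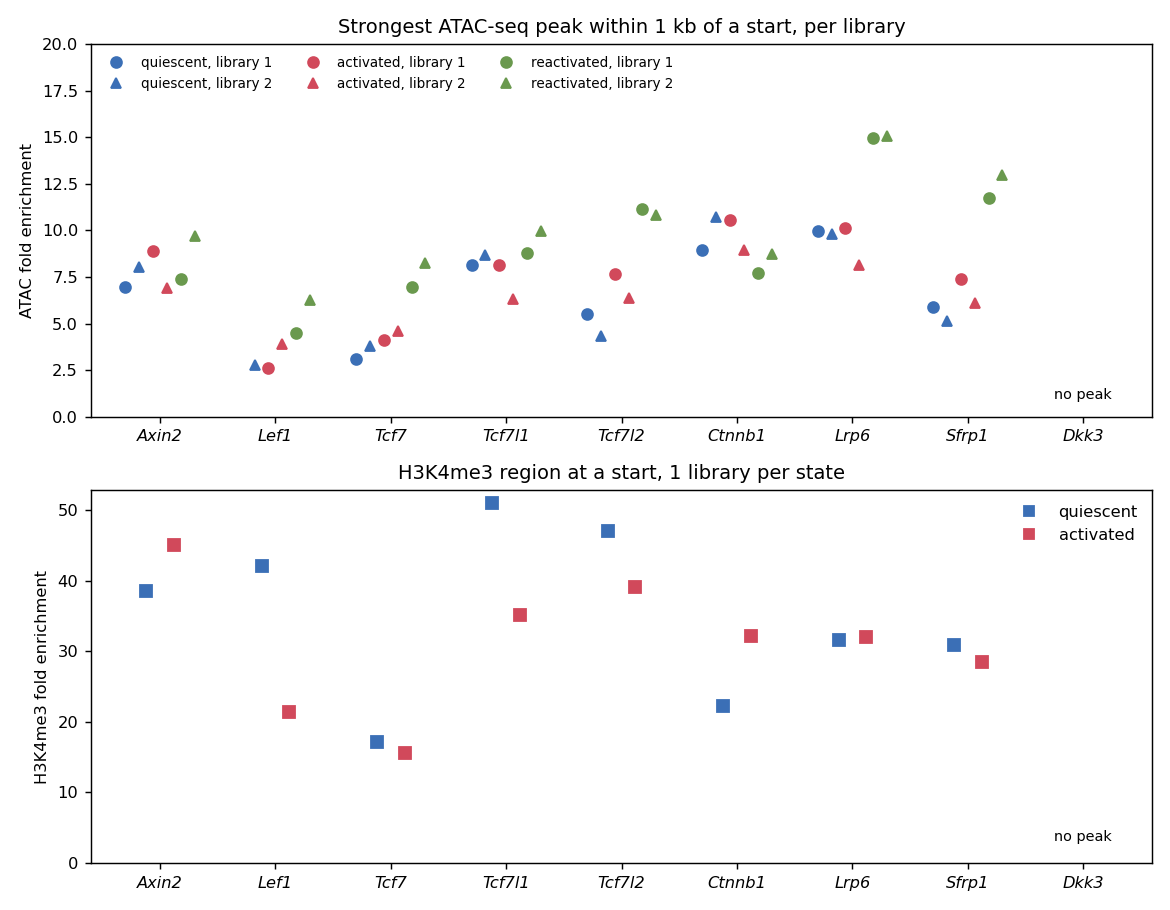
Promoter levels at the 9 genes. The upper panel plots ATAC fold enrichment of the strongest peak within 1 kb of any start of the gene, 1 point per library. A gap is a library with no peak, and *Tcf7l2* takes the stronger of 2 starts. The lower panel plots H3K4me3 fold enrichment of the region at the start, 1 library per state. *Dkk3* has no point in either panel. *Lef1* is weak in ATAC (from 2.61 to 6.29). Its H3K4me3 is 42.1 in quiescent (percentile 75.2) and 21.4 in activated NSPCs (percentile 39.4).

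In quiescent NSPCs, H3K4me3 at *Lef1* contrasted with its weak accessibility. The region over the *Lef1* start, at chr3:131110181-131112971 in quiescent NSPCs, had a fold enrichment of 42.1 in the quiescent library (percentile 75.2) and 21.4 in the activated library (percentile 39.4). The ratio of activated to quiescent was 0.508, at percentile 0.560 of the ratios of 15548 overlapping pairs of regions, whose median was 0.927 and whose 5th and 95th percentiles were 0.647 and 1.296. Its width was nearly equal, 2791 bp and 2634 bp. With 1 library per state there was no replicate check on any H3K4me3 difference, and none was tested.

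*Tcf7l1* went the same way as *Lef1*, with 51.1 in the quiescent and 35.1 in the activated library, a ratio of 0.688 at percentile 8.14. Unlike that of *Lef1*, this ratio lay within the central 90% of the ratios. *Ctnnb1* went the other way, with 22.3 and 32.2, a ratio of 1.44 at percentile 98.0. The first start of *Tcf7l2* had 47.1 and 39.1 and its second start 7.88 and 7.59. *Axin2* had 38.6 and 45.1, *Sfrp1* 30.9 and 28.5, *Lrp6* 31.6 and 32.1 and *Tcf7* 17.1 and 15.6, all within the central 90% of the ratios.

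The *Axin2* region was among the widest of either list. It ran over 6001 bp in quiescent NSPCs (percentile 98.8 of widths) and 6016 bp in activated NSPCs (percentile 99.1), from the start into the gene. *Tcf7l2* came next with 4476 bp and 4640 bp (percentiles 96.2 and 97.4), whereas *Tcf7* had 1592 bp and 1110 bp.

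Small H3K4me3 regions away from the starts were found at 3 of the genes, in both states. One lay 4148 bp upstream of *Lef1*, with a fold enrichment of 4.24 in the quiescent and 3.90 in the activated library. It overlapped the *Lef1* upstream ATAC site printed above, which had a peak in both activated and in no quiescent library. The others lay 2260 bp (quiescent) and 1880 bp (activated) upstream of *Axin2*, at 2.89 and 4.46, and in an intron of *Tcf7l2*, at 4.44 and 5.86.

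Away from the starts, the genes were compared first by whether a peak was present. A site was called open in a state with a peak in both of its libraries and closed with a peak in neither. In quiescent NSPCs 26 of the 105 sites were open, in activated NSPCs 31 and in reactivated NSPCs 66. These were 24.8%, 29.5% and 62.9% of the members' sites, against 33.4%, 31.2% and 63.0% of all 86017 protein-coding sites. With lists of equal length, 25, 27 and 32 of 57 sites were open, which were 43.9%, 47.4% and 56.1%, against 50.3%, 49.3% and 52.6% of 51434 protein-coding sites, so the reactivated count moved with the length of its lists. Peaks in all 6 libraries were found at 19 sites (18.1%, against 23.6% of protein-coding sites), and 6 of those 19 were at *Tcf7l1*. A single library had the only peak at 34 sites. It was a reactivated library at 26 sites (24.8%, against 21.03% of protein-coding sites). A quiescent library had it at 6 (5.71%, against 6.71%) and an activated one at 2 (1.905%, against 1.918%).

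**Figure D2:**
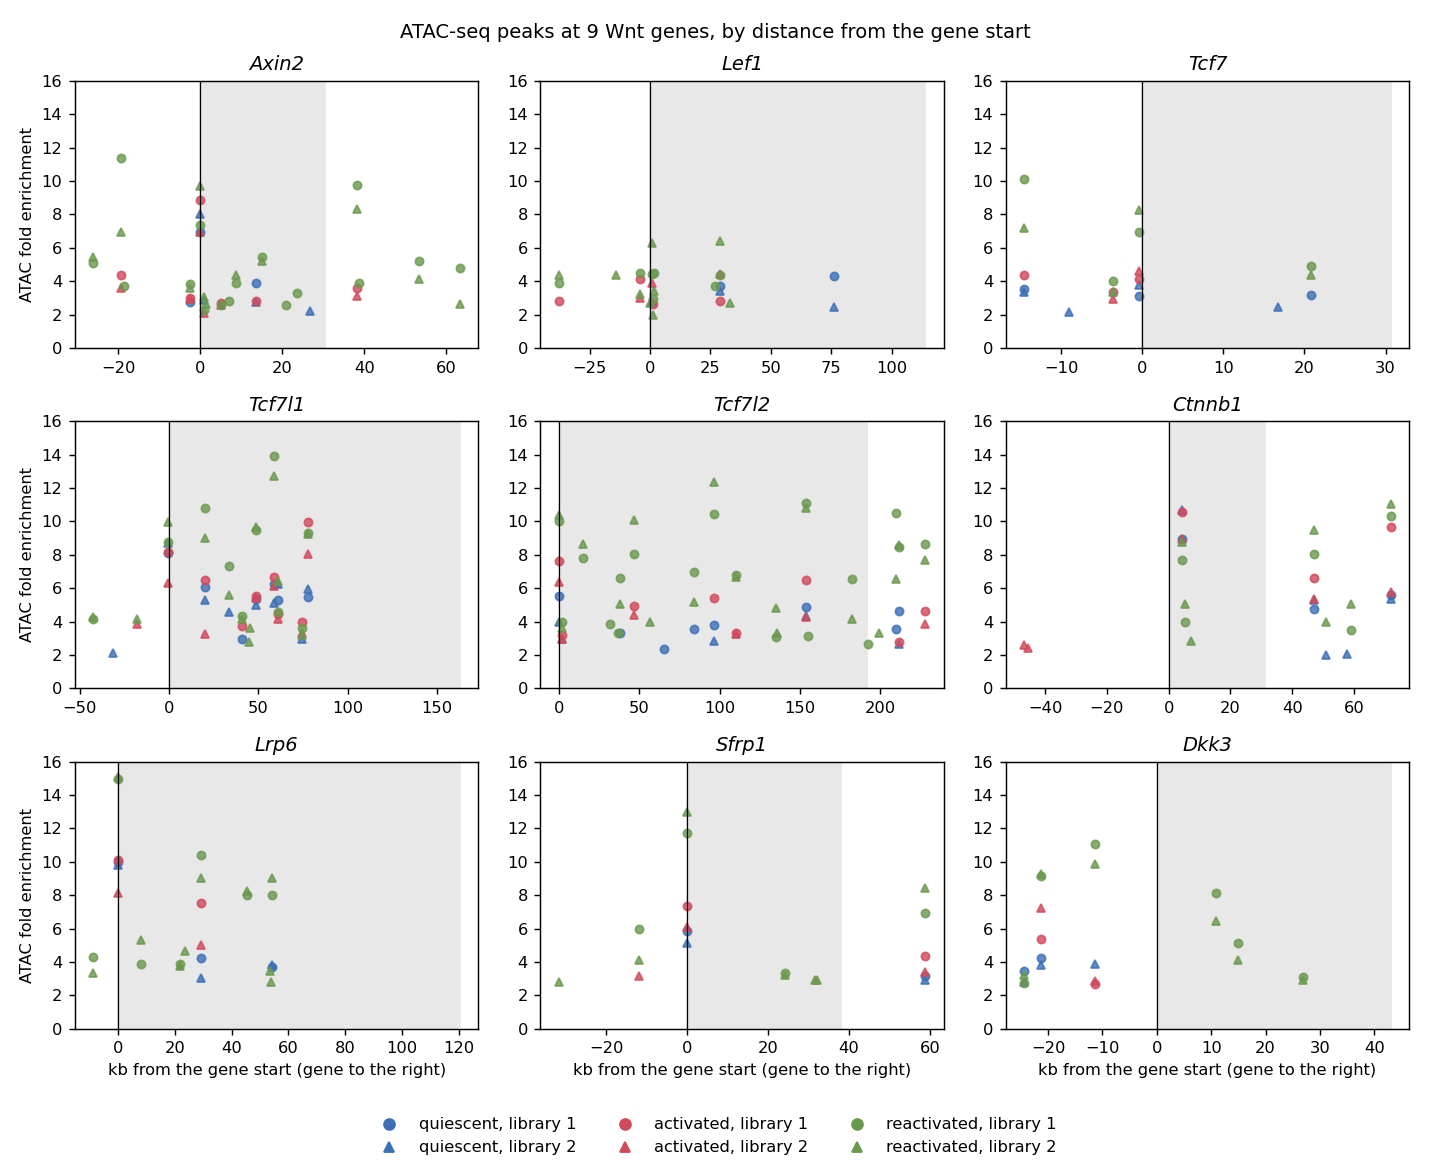
ATAC fold enrichment of every peak at the 105 sites (vertical axis) by distance of the site from the gene start in kb, with the gene running to the right (grey shading is the annotated gene body). Colours are states and symbols the 2 libraries; the green reactivated points are the most numerous in most panels, and *Tcf7l1* holds a row of intronic sites with points of all 3 states between 20.2 and 77.5 kb.

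Between quiescent and activated NSPCs, sites open in one state alone were found in both directions. Of 41 sites with a peak in at least 2 of these 4 libraries, 8 were open in activated and closed in quiescent NSPCs (19.5%, against 9.11% of protein-coding sites), 3 were open in quiescent and closed in activated NSPCs (7.32%, against 13.2%), and 19 were open in both. With 2 libraries against 2 the smallest two-sided p of an exact permutation test is 0.333, so presence was not tested. At a −log10 q of at least 10 only 1 activated and 0 quiescent sites were left. The quiescent count was 10 without quiescent replicate 1, 8 without quiescent replicate 2 and 7 without activated replicate 1. A state left with 1 library was called from that library alone. Leaving a library out thus loosens the rule and tends to raise such counts.

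The 8 activated sites lay at 4 of the genes, *Axin2* (3), *Tcf7l2* (3), *Lef1* (1) and *Tcf7* (1), and 0 of them lay at a promoter. All 8 were near or below the middle of the activated lists, with percentiles from 4.32 to 55.6. The strongest was in a *Tcf7l2* intron, 46.6 kb from the gene start at chr19:55788291-55788790, with 4.91 and 4.42 in the activated libraries and 8.08 and 10.1 in the reactivated ones. A second *Tcf7l2* intron, at 110.0 kb, had 3.32 and 3.28 in activated and 6.80 and 6.65 in reactivated NSPCs. The last of them lay downstream of *Tcf7l2*, 228.2 kb from its start, with 4.64 and 3.85 in activated and 8.67 and 7.67 in reactivated NSPCs. At all 3 the reactivated libraries were above the activated ones before scaling, and no quiescent library had a peak.

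*Axin2* showed the same order at 2 of its 3 sites. The site 19.4 kb upstream, at chr11:108900748-108901093, had 4.38 and 3.57 in activated NSPCs and 11.4 and 6.96 in reactivated NSPCs. The site 38.2 kb from the start, downstream of the gene, had 3.58 and 3.14 in activated and 9.78 and 8.32 in reactivated NSPCs. The intronic site at 5.00 kb was weak, with 2.69 and 2.55 in the activated libraries and 2.58 in reactivated replicate 1 alone.

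The *Lef1* upstream site, at chr3:131105976-131106262, had 4.10 and 2.99 in activated and 4.46 and 3.21 in reactivated NSPCs, which overlapped. The *Tcf7* site 3.57 kb upstream of the start had 3.37 and 2.95 in activated and 4.01 and 3.37 in reactivated NSPCs. In total 7 of the 8 sites were open again in reactivated NSPCs (87.5%, against 92.4% of all such sites).

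The 3 quiescent sites were each at a different gene. The *Lrp6* intronic site 54.3 kb from the start, at chr6:134512515-134512870, had 3.68 and 3.82 in quiescent NSPCs and 8.005 and 9.04 in reactivated NSPCs. Neither activated library had a peak there. The *Dkk3* site 24.4 kb upstream had 3.47 and 2.80 in quiescent and 2.71 and 3.20 in reactivated NSPCs. The *Lef1* site at 75.9 kb, in an exon, had 4.34 and 2.45 in quiescent NSPCs and no peak in the other 4 libraries. With *Lrp6* and *Dkk3*, 2 of the 3 were open in reactivated NSPCs (66.7%, against 57% of all such sites).

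**Figure D3:**
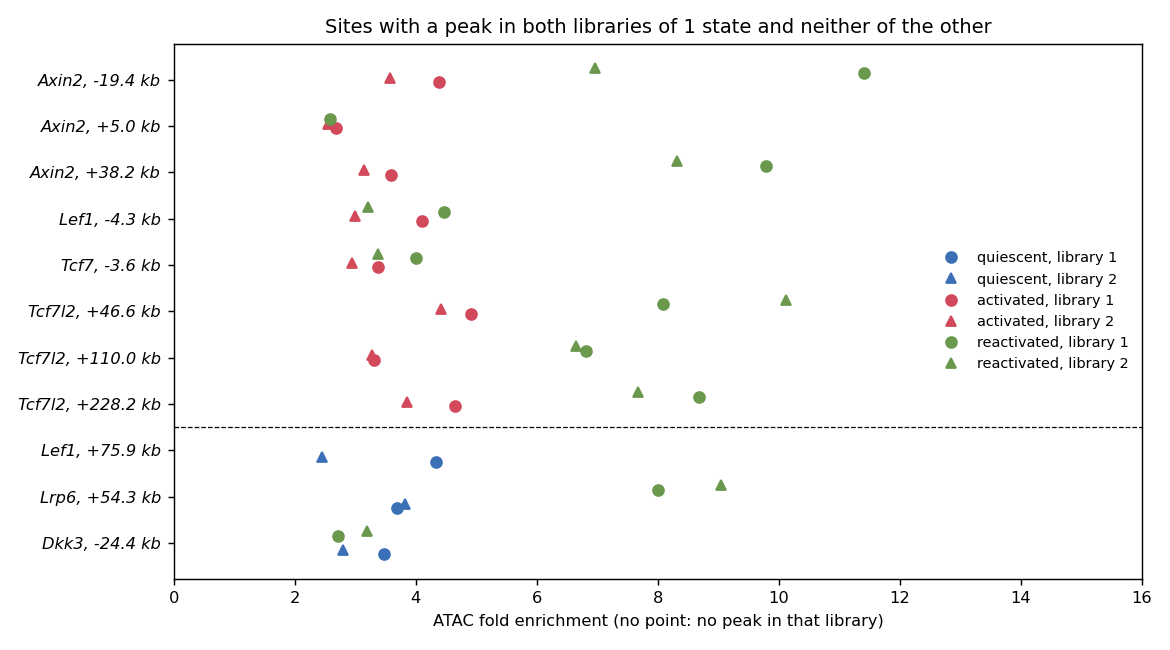
ATAC fold enrichment (horizontal axis) in each library at the 8 sites open in activated and closed in quiescent NSPCs (above the dashed line) and the 3 open in quiescent and closed in activated NSPCs (below it), labelled by gene and kb from its start. A missing point is a library without a peak; reactivated points are present at 10 of the 11 sites and reach 11.4 at *Axin2*.

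Reactivated NSPCs had many sites of their own. At 20 sites both reactivated libraries and no other library had a peak, which was 28.2% of the 71 sites with a peak in at least 2 of 6 libraries, against 20.8% of protein-coding sites. They were at 8 of the genes: *Axin2* (5), *Lrp6* (4), *Dkk3* (3), *Tcf7l2* (3), *Ctnnb1* (2), *Lef1* (1), *Tcf7l1* (1) and *Sfrp1* (1). Their fold enrichment ran from 2.66 to 8.64, with the highest in a *Tcf7l2* intron 15.1 kb from the start, at 7.78 and 8.64. An intron of *Lrp6*, 45.3 kb from the start, had 8.005 and 8.25, and an intron of *Dkk3*, at 10.9 kb, had 8.12 and 6.45. With each list limited to its 47037 strongest peaks, 3 of 44 sites of the 9 genes were of this kind (6.82%, against 2.87%), so the count moved with the length of the reactivated lists.

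The TCF/LEF matches were spread over these classes. Of the 14 sites with a match, 4 were reactivated alone, 3 had a peak in all 6 libraries (the *Axin2* and *Tcf7* promoters and the *Dkk3* site 21.4 kb upstream), 1 was the activated *Lef1* site and 0 were quiescent. Among all 105 sites of the 9 genes, the same classes held 20, 19, 8 and 3 sites. An *Axin2* intron 15.1 kb from the start was the strongest by mean of the 4 reactivated sites with a match, with 5.48 and 5.21.

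**Figure D4:**
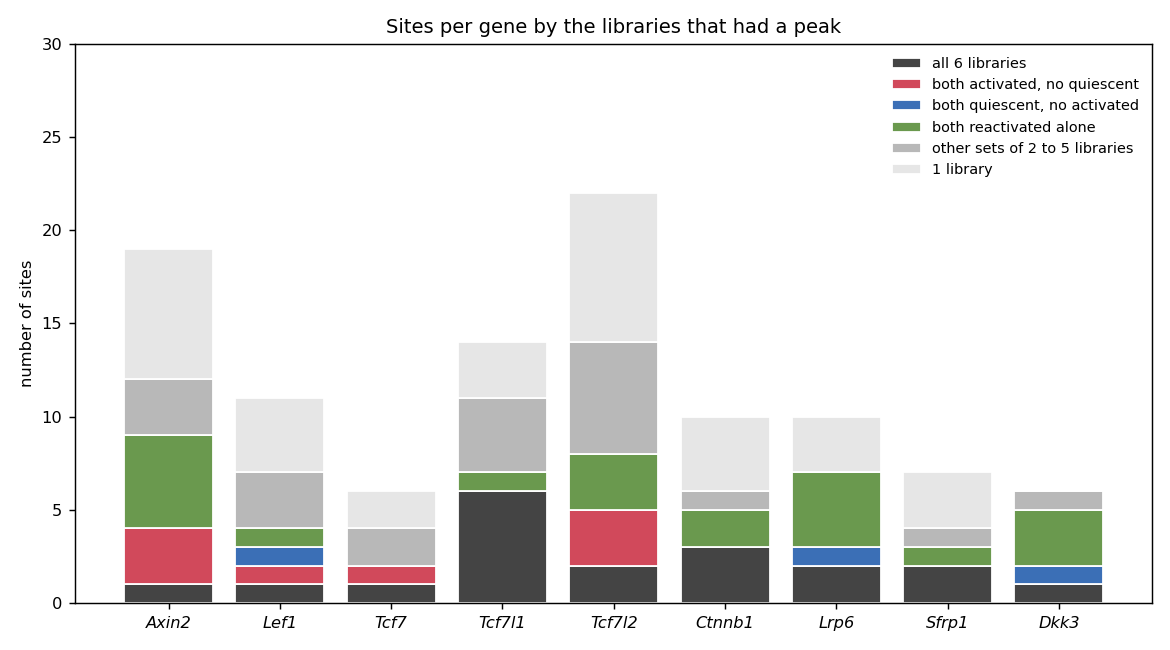
Number of sites per gene (vertical axis), stacked by the libraries that had a peak. *Tcf7l1* has 6 of the 19 sites shared by all 6 libraries, *Axin2* and *Tcf7l2* each have 3 activated sites, and *Axin2* has 5 sites of the reactivated libraries alone.

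*Dkk3* was open only at a distance from its start. By mean percentile, with a library without a peak counted as 0, its strongest site lay 21.4 kb upstream at chr7:112180204-112180795. That site had a peak in all 6 libraries, with 4.26 and 3.82 in quiescent NSPCs, 5.39 and 7.26 in activated NSPCs and 9.15 and 9.29 in reactivated NSPCs. Before scaling the 3 states did not overlap there, and after centring reactivated minus activated was −0.09 (not called in limma). A site 11.4 kb upstream of *Dkk3* had 3.90 in quiescent replicate 2, 2.65 and 2.83 in activated and 11.1 and 9.84 in reactivated NSPCs.

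In the introns of *Tcf7l1*, 5 sites had a peak in every library. The one at 58.6 kb had 6.22 and 5.09 in quiescent NSPCs, 6.65 and 6.13 in activated NSPCs and 14.0 and 12.7 in reactivated NSPCs, and its centred differences were 0.41 from activated and 0.37 from quiescent NSPCs, with no call. Among the upper 50% of sites the difference from quiescent was 0.55 there (adjusted p = 0.031 in limma). The one at 77.5 kb had 5.47 and 5.98 in quiescent NSPCs, 9.96 and 8.06 in activated NSPCs and 9.32 and 9.25 in reactivated NSPCs, and before scaling both quiescent libraries were the lowest. After centring, reactivated minus quiescent was −0.18 at 77.5 kb (not called in limma). At 61.3 kb the quiescent libraries had 5.28 and 6.22, the activated ones 4.48 and 4.14 and the reactivated ones 4.59 and 6.43.

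*Ctnnb1* shared its downstream region with another gene, and 5 of its 10 sites lay in introns of *Ulk4*. Of these, the site at 47.2 kb had 4.72 and 5.27 in quiescent NSPCs, 6.62 and 5.36 in activated NSPCs and 8.04 and 9.51 in reactivated NSPCs. The site at 71.9 kb had 5.62 and 5.35, 9.69 and 5.80, and 10.3 and 11.1 in the same order. Before scaling the reactivated libraries were the highest at both, but after centring reactivated minus quiescent was −0.06 at 47.2 kb and 0.09 at 71.9 kb, and reactivated minus activated −0.10 and −0.14, with no call. Which gene such sites act on was not measured.

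Levels were then compared by limma at the 19 sites with a peak in all 6 libraries, on log2 fold enrichment centred on the median of each library, among 23116 such sites. The other 86 sites of the 9 genes could not enter, and selection for a peak everywhere leaves out the sites that open or close. The 3 contrasts share libraries, and the only replication behind the p-values is 2 libraries per state. limma drew the variance of each site towards a trend over all 23116 sites, so a p-value does not rest on the spread at that site alone.

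Between activated and quiescent NSPCs 0 of the 19 sites were called higher (6.35% of all sites) and 0 lower (7.05%) at a Benjamini-Hochberg adjusted p of 0.05 in limma. At an unadjusted p under 0.05 in limma there were 2 higher and 4 lower. No share of all sites was taken at that threshold, so these 2 counts are a description only. The lowest adjusted p was 0.083, at the *Tcf7l1* intron 61.3 kb from the start, with a log2 difference of −0.64 ± 0.24 (SE). The *Lrp6* intron at 29.1 kb had the highest difference, 0.55 ± 0.23, from 4.21 and 3.06 in quiescent to 7.56 and 4.99 in activated NSPCs. Without activated replicate 1, the *Tcf7l1* intron at 20.2 kb was called lower (−0.86, adjusted p = 0.037). The median over the 19 sites was −0.03, and −0.07 over all sites.

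Between reactivated and activated NSPCs, 3 of the 19 sites were lower (14.5% of all sites) and 0 higher (7.66%). The *Ctnnb1* promoter differed by −0.89 ± 0.17 (adjusted p = 0.0016 in limma). The *Tcf7l1* intron at 77.5 kb differed by −0.60 ± 0.19 (adjusted p = 0.025) and the *Axin2* promoter by −0.54 ± 0.19 (adjusted p = 0.047). These are differences relative to the median site: without centring, which moved every difference up by 0.65, the median over all sites was 0.55, the same sites stood at −0.24, 0.05 and 0.11, and 9 of the 19 sites (47.4%, against 52.6% of all sites) were higher and 0 lower. With fold enrichment averaged by peak width, 0 of the 19 sites were lower and the *Ctnnb1* promoter stood at −0.60 (adjusted p = 0.064). The *Axin2* call was also lost with quantile normalization (−0.56, adjusted p = 0.055) and among the upper 50% of sites (−0.42, adjusted p = 0.12), where the *Tcf7l1* call was lost too (−0.48, adjusted p = 0.070). The *Ctnnb1* call held with each library left out, whereas those of *Tcf7l1* and *Axin2* were lost without either activated or either reactivated library. In those 4 fits the difference ran from −0.57 to −0.67 at *Tcf7l1* and from −0.38 to −0.72 at *Axin2*.

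Between reactivated and quiescent NSPCs, 4 of the 19 sites were lower (25.7% of all sites) and 0 higher (11.5%). The *Ctnnb1* promoter differed by −1.13 ± 0.17 (adjusted p = 5.5e-05 in limma), the *Tcf7l1* intron at 61.3 kb by −0.95 ± 0.24 (adjusted p = 0.0038), the *Tcf7l1* promoter by −0.72 ± 0.18 (adjusted p = 0.0035) and the *Axin2* promoter by −0.70 ± 0.19 (adjusted p = 0.0072). Without centring they stood at −0.25, −0.08, 0.15 and 0.18, every difference having moved up by 0.87, the median over all sites was 0.72, and 14 sites were higher (73.7%, against 68.2% of all sites) and 0 lower. With fold enrichment averaged by peak width, the *Axin2* promoter lost its call (−0.54, adjusted p = 0.083) and the *Lrp6* promoter gained one, while the *Lrp6* intron at 29.1 kb was called higher (0.71, adjusted p = 0.037), as it was with the replicate block (0.56, adjusted p = 0.048). Without reactivated replicate 1 only the *Ctnnb1* call was left, and without quiescent replicate 2 the *Ctnnb1* and *Tcf7l1* promoters.

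**Figure D5:**
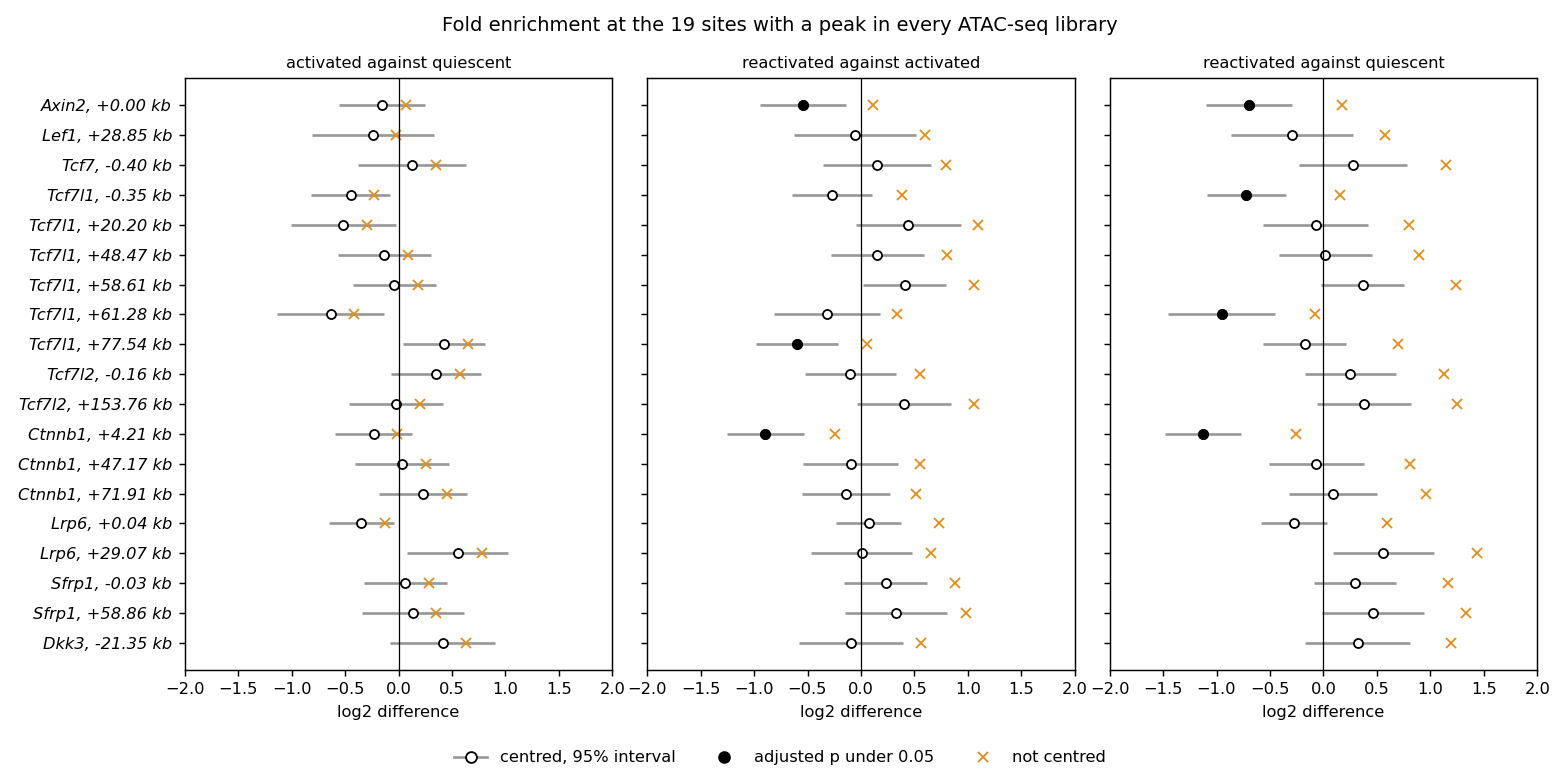
Log2 differences in ATAC fold enrichment at the 19 sites with a peak in every library, for the 3 pairs of states. Circles are centred values with 95% intervals (filled where limma's adjusted p was under 0.05), crosses are values without centring, and the filled circles are 0, 3 and 4 from left to right, all below 0, with the *Ctnnb1* promoter lowest in both contrasts of reactivated NSPCs.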

How the data were processed

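ATAC-seq and H3K4me3 ChIP-seq peak lists, 1 per library, were analysed. According to the submitters' processing notes and the study's methods, the authors trimmed reads (Trim Galore 0.4.0), aligned them to mm10 (Bowtie2 2.2.5), removed duplicates (Picard 1.88, SAMtools 1.3.1) and called peaks per library with MACS. The input libraries were not analysed here on their own. The deposited fold enrichment is a ratio to the library's own or input background. The −log10 p-values and q-values deposited beside it grow with depth. The deposited score restates q and was not used.

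ATAC peaks on autosomes, X and Y that overlapped or abutted were merged and assigned with GENCODE M21 from the summit with the highest percentile. Broad regions were assigned to a start they cover or to the nearest one. Pileups were recovered from fold enrichment and p. Log2 fold enrichment of the highest peak per library was fitted with limma 3.58.1 (trend, 3 states in 1 fit) in R 4.3.3, with Benjamini-Hochberg adjustment over all sites fitted. Motifs were exact matches in GRCm38.p6. Python 3.11.15, pandas 2.3.3 and scipy 1.17.1 were used. Site classes, pileups, motif search and limma were tested on simulated data.

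The members, lists and tests were chosen with earlier results of these data known. Named were sites within 1 kb of a start, sites of 1 state, called sites and the site of highest mean percentile per gene. Of 16 candidate sequences 9 were printed, 5 with a TCF/LEF match and then 4 without one, by mean percentile, an order chosen after the data were seen. Not every named site with a match had its sequence printed. Of the motifs and sequences examined, 1 motif and 1 sequence are not reported here. Sites fitted by limma that illustrate a gene, sites of the reactivated libraries alone and single neighbouring sites were chosen after their values were seen.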

Additional observations from a re-analysis of the deposited data

How the results depend on the processing

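Of the counts of open sites, a −log10 q of at least 10 left 14 in quiescent and 14 in activated NSPCs, with 0 quiescent and 1 activated site of 1 state, and lists of equal length left 32 in reactivated NSPCs. Leaving out each library gave 26 to 38, 31 to 38 and 66 to 86 open sites in quiescent, activated and reactivated NSPCs, 3 to 10 quiescent and 8 to 12 activated sites of 1 state. These ranges reach upwards because a state with 1 library left was called from that library alone. AP-1 matches numbered 11 in whole sites (10.5%, against 10.8% of all sites) and 12 in 400 bp (11.4%, against 11.9%).

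In limma, without scaling, 9 sites were higher and 0 lower in reactivated against activated (52.6% of all sites were higher), and 14 and 0 in reactivated against quiescent (68.2%). That setting moves every site alike, and 9 and 7 of the 19 sites changed sign. Of those called in either setting, it reversed the *Axin2* promoter (0.11 and 0.18) and the *Tcf7l1* intron at 77.5 kb (0.052 and 0.70) in both contrasts. Against quiescent it also reversed the *Tcf7l1* promoter (0.15), the *Tcf7l1* intron at 20.2 kb (0.80), the *Lrp6* promoter (0.60) and the *Ctnnb1* site at 47.2 kb (0.81). For reactivated against activated, width-weighted means gave 0 of 19 sites lower (against 6.13% of all sites). The upper 50% of sites gave 1 of 8 lower (12.5%, against 10.7%). The 2 states alone gave 2 of 30 higher (6.67%, against 5.80%) and 4 lower (13.3%, against 15.9%). For reactivated against quiescent, width-weighted means gave 1 of 19 sites higher (5.26%, against 10.16% of all sites). The upper 50% of sites gave 2 of 8 higher (25%, against 14.99%), and the 2 states alone gave 1 of 24 (4.17%, against 10.09%). Each fit without a library held 1 library in that state, so calls gained or lost in those fits are a description only. The causes were not tested.

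Replicate numbers were shared across states, and deviations of same-numbered libraries correlated by −0.017 to 0.042. The main fit did not pair the samples. With 2 libraries per state such correlations cannot show whether same-numbered libraries shared a culture or a preparation. The replicate block gave 0 and 0, 0 and 3, and 1 and 4 sites higher and lower in the 3 contrasts. Presence calls and H3K4me3 came from no test and had no block.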

Other observations

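The rest of the Wnt pathway was described from lists of 87 genes, which had 618 sites. Of 256 sites with a peak in at least 2 quiescent or activated libraries, 29 were open in quiescent and closed in activated NSPCs (11.3%, against 13.2% of all protein-coding sites) and 28 the reverse (10.9%, against 9.11%). Of 125 sites with a peak in all 6 libraries, limma called 7 higher (5.60%, against 6.35% of all sites) and 4 lower (3.20%, against 7.05%) in activated NSPCs, with a median log2 difference of 0.02. For the named sites below, the extreme in each direction was taken per list, so the values are a description.

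Among genes that act in the cytoplasm and nucleus, 4 of 43 fitted sites were higher in activated NSPCs and 2 lower. A site upstream of *Tle3*, which encodes a co-repressor that binds TCF proteins, rose from 2.89 and 3.06 in the quiescent to 10.6 and 6.42 in the activated libraries, a log2 difference of 1.25 ± 0.24 (adjusted p = 0.00089 in limma). A site in *Apc2*, related to the beta-catenin destruction complex gene *Apc*, fell from 10.4 and 10.7 in the quiescent to 5.54 and 5.48 in the activated libraries, a difference of −1.16 ± 0.18 (adjusted p = 0.00015). Both groups were apart in every library.

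Among 18 inhibitors, 1 of 20 fitted sites was called. It lay 35.8 kb upstream of *Kremen1*, a receptor for Dickkopf proteins, and rose from 2.76 and 1.99 in quiescent to 5.35 and 5.45 in activated NSPCs (log2 difference 0.98 ± 0.24, adjusted p = 0.0073 in limma). Among 17 receptors, 1 site was higher, 29.5 kb into *Ryk* (0.63 ± 0.19, adjusted p = 0.033), and 2 were lower, of which one lay 24.6 kb upstream of *Fzd10* (−0.72 ± 0.23, adjusted p = 0.042). Among 24 ligands and their secretion factors, 1 of 27 sites was higher, in *Wnt7b* (0.70 ± 0.23, adjusted p = 0.042), and 0 were lower. Among 6 further targets, 0 of 9 fitted sites were called.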
